A study of Mus musculus with 6 samples.

Results

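Toll-like receptors, NOD-like receptors and C-type lectins are the receptors through which cells recognise microbes and damaged tissue. The genes described here are those whose symbol starts with Tlr, Nlrp or Clec and a number, together with Nlrc3, Nlrc4, Nod1, Nod2, Aim2 and the adaptors Myd88 and Pycard. Where several probe sets named a gene and no other, the one with the highest mean over the 6 arrays stood for it. By this rule 69 genes were found among 19937 genes measured: 10 Toll-like receptors, 24 NOD-like receptors counting the DNA sensor Aim2, 33 C-type lectins and 2 adaptors. Among the 69, Clec2j, Nlrp4d, Nlrp5-ps and Nlrp1c-ps are annotated as pseudogenes. Tlr5, Tlr11, Nlrp12 and Clec2f were not analysed here.

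RNA came from whole kidneys of mice in 2 groups, each with 3 samples on an Affymetrix array apiece. The NICD group carried the genotype Pax8rtTA TREICNotch1, in which a transactivator under the Pax8 promoter turns on the Notch1 intracellular domain, the active fragment of the receptor, in tubule epithelium. The Control group held wild-type littermates. The labels give neither the inducer and its duration nor the age and sex of the mice. They do not say that same-group samples came from separate animals, so p-values measure only the spread between these samples, which may be technical. Notch1 stood at 10.29, 10.30 and 9.99 in NICD kidneys against 6.65, 6.59 and 6.45 in Control kidneys, on the log2 scale used throughout.

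Toll-like receptors sit in the cell surface or in endosomes and signal mostly through the adaptor Myd88 to NF-kB and interferon regulatory factors. NOD-like receptors work in the cytosol, and several of them, with Aim2, assemble with the adaptor Pycard into inflammasomes that activate caspase-1. Some C-type lectins, such as Dectin-1 and Dectin-2, bind microbial sugars on myeloid cells and signal through Syk, while others are inhibitory or bind ligands of the body itself. In the kidney these receptors are known from resident and infiltrating macrophages and, for some members, from tubule epithelium.

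Of the 69 genes, 19 were higher and 5 were lower in NICD kidneys at an adjusted p under 0.05, and 45 did not pass (limma over all 19937 genes, Benjamini-Hochberg adjustment, two-sided). Over all genes 32.7% passed, 17.8% as higher and 14.9% as lower. The member genes' share called in either direction, 34.8%, was close to that background, but 27.5% of members were higher and 7.2% lower. Their median difference was 0.09 log2 against 0.01 over all genes. Their levels were low: 53 of the 69 lay under the median gene of every array, against 43.9% of all genes. Among genes ranked under the middle by mean level, 18 of 59 members were called, where 12.9% of all such genes were. In whole tissue, a change in the number of cells of a type and a change in RNA per cell cannot be told apart. When arrays were centred on their medians, the median of all genes shifted by -0.12 and the members split into 13 higher and 12 lower. The higher share of member calls was then 52.0%, against 79.2% as deposited, and of all calls 39.4%, against 54.4%.

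By family, Toll-like receptors held 7 rises and 0 falls among 10 genes (70.0% called), with a median difference of 0.70 log2. NOD-like receptors and Aim2 held 1 rise and 2 falls among 24 (12.5% called), with a median of 0.03. C-type lectins held 9 rises and 3 falls among 33 (36.4% called), with a median of 0.04, and both adaptors rose. The share called was 32.7% over all genes and 12.9% among those ranked under the middle by mean level. Differences of at least 2-fold were called for 6 higher members (Clec18a, Clec4n, Tlr13, Clec7a, Myd88 and Clec5a) and 2 lower ones (Clec2h and Nlrp6), together 11.6% of the members against 9.95% of all genes. The 3 NICD values lay entirely above the 3 Control values for 26 members and entirely below them for 8, together 34 of 69, where 43.4% of all genes were so placed (23.7% above and 19.7% below).

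**Figure D1:**
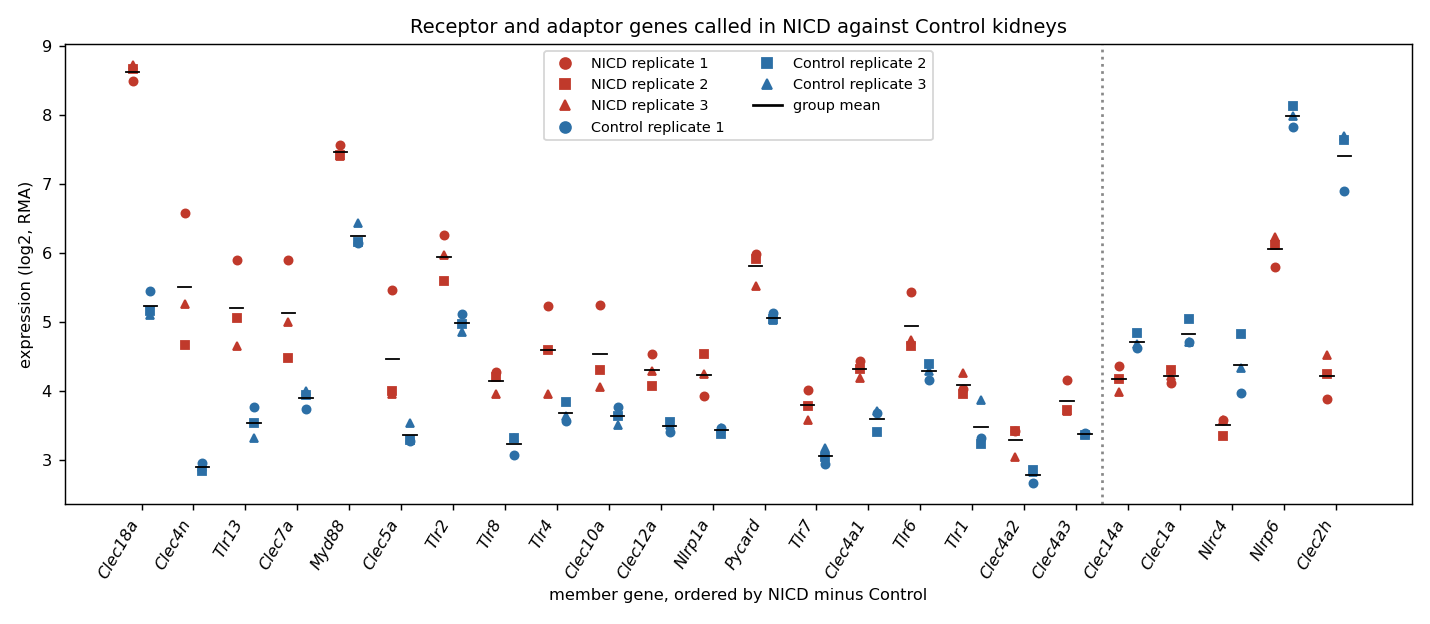
Expression (log2, RMA) of the 24 called member genes on each array, NICD to the left of Control for each gene, with black bars at group means and genes ordered by their difference. All 24 genes have NICD and Control arrays that do not overlap, as 43.4% of all genes do. Calls were made on these same arrays, so this placement is no separate support for them. NICD replicate 1 is the highest NICD array for 16 of the 19 genes to the left of the dotted line.

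**Figure D2:**
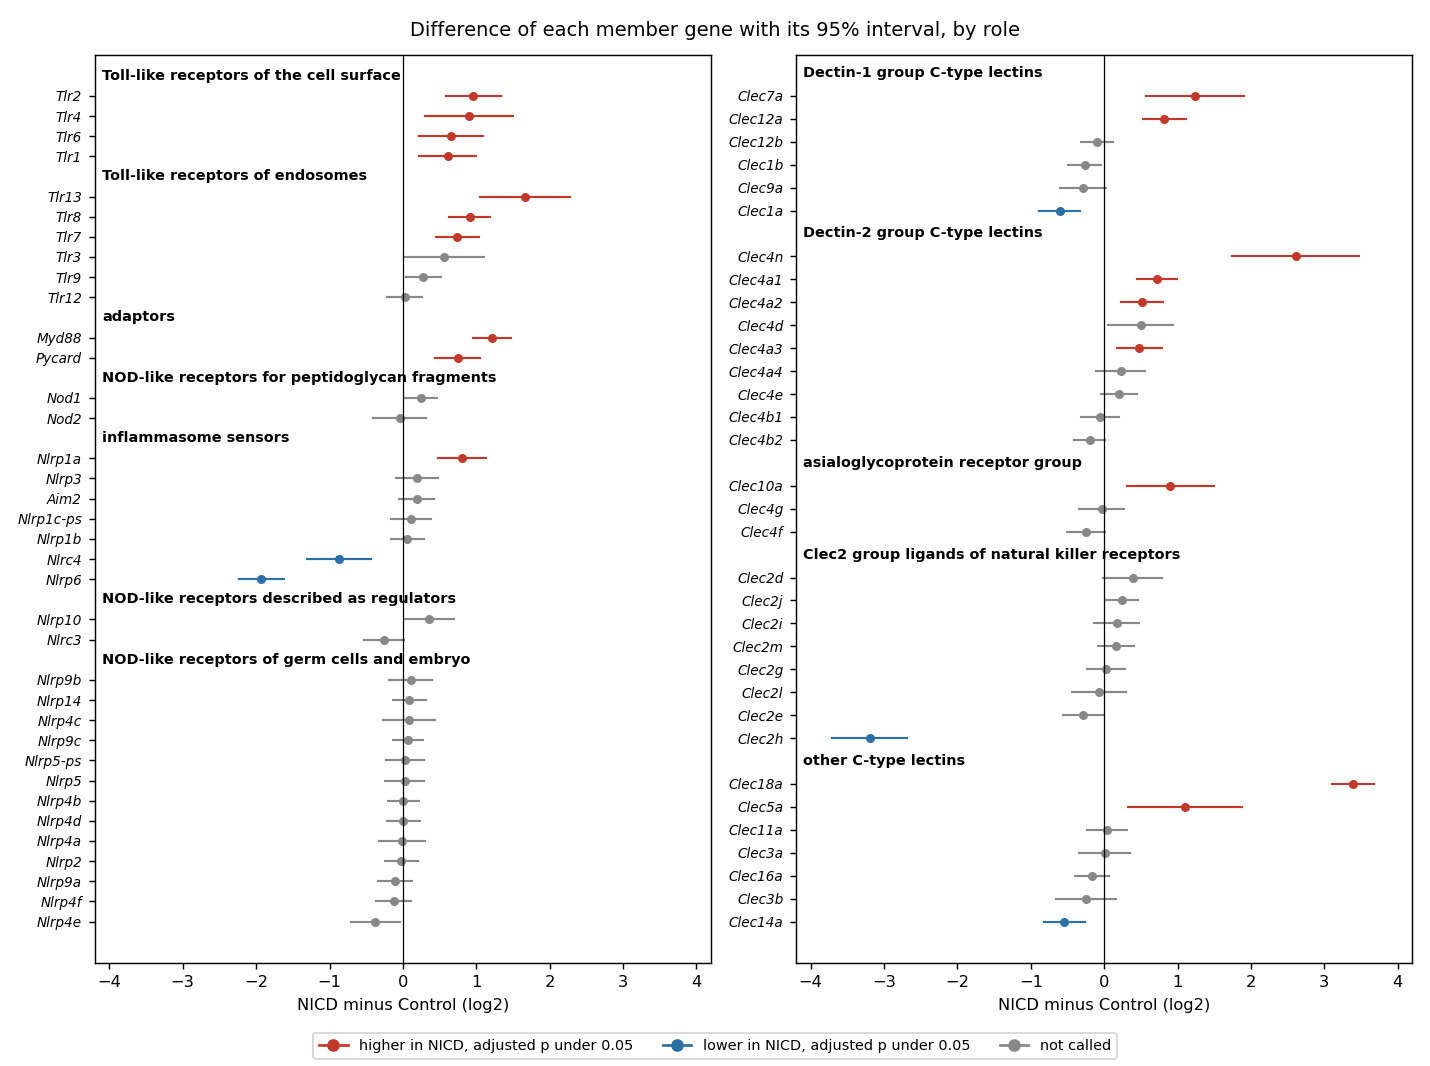
Difference between NICD and Control (log2) of all 69 member genes with its 95% interval, grouped by role and coloured by call. The 4 surface Toll-like receptors lie to the right of 0, the 13 germ cell and embryo genes lie close to 0, and Clec18a and Clec2h mark the 2 ends.

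The promoters of 5 called members are shown because their differences were among the largest of the members with an entry in the promoter table, and because they stand for different roles: a secreted lectin, an endosomal Toll-like receptor, an adaptor, an epithelial lectin and an inflammasome gene. Each runs 5′ to 3′ along the gene from 250 bases before its start to 50 after it, from RefSeq on GRCm38.p6. Clec18a is at chr8:111081659-111081958 on the minus strand, Tlr13 at chrX:106143025-106143324 on the plus strand and Myd88 at chr9:119339969-119340268 on the minus strand. Clec2h is at chr6:128662135-128662434 and Nlrp6 at chr7:140920652-140920951, both on the plus strand. Capitals mark matches, on either strand, to the letters TGGGAA (core of RBPJ, the DNA-binding partner of Notch), GAGGAA (core of PU.1, a myeloid factor) and AAAGTCCA (HNF4, a hepatic and tubular factor), and to the NF-kB site and the interferon response element, both of which allow free bases in the middle. No marked matches overlap.
Clec18a: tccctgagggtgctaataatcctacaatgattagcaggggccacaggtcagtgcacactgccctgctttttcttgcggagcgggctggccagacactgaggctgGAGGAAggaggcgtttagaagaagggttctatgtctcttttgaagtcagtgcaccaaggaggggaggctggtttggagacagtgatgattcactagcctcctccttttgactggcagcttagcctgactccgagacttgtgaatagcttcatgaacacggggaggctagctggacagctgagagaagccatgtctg
Tlr13: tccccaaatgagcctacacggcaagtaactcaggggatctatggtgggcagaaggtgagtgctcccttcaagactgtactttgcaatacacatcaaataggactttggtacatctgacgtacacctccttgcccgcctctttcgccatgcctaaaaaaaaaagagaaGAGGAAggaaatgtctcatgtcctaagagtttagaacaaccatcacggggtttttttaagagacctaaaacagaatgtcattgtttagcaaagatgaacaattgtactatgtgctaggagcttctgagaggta
Myd88: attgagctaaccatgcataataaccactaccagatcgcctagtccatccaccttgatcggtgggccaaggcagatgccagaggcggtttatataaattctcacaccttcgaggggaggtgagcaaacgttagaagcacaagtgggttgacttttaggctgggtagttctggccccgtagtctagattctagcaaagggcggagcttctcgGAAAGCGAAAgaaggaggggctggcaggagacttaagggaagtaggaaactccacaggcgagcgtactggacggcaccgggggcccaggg
Clec2h: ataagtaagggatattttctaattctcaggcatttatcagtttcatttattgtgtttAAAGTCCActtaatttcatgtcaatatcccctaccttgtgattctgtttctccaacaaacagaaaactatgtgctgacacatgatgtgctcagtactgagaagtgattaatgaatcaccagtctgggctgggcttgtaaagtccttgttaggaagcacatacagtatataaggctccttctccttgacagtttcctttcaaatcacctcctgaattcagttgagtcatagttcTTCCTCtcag
Nlrp6: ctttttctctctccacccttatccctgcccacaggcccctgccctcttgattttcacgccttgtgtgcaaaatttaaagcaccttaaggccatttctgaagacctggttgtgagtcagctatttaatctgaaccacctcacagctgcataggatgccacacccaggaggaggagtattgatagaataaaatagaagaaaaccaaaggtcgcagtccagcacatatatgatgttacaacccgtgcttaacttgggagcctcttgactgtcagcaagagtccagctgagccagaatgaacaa

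In these windows Clec18a and Tlr13 held GAGGAA at positions -146 and -83 from the start, Myd88 held GAAAGCGAAA at -40, and Clec2h held AAAGTCCA at -193 and the GAGGAA letters on the other strand at 41. None of the letters searched was in the Nlrp6 window. Over all 27025 genes with an entry, 31.3% held GAGGAA, 28.3% TGGGAA, 3.99% the interferon response letters, 1.46% AAAGTCCA and 0.466% the NF-kB letters in at least 1 window. Of the 55 members with an entry, GAGGAA was found in 11 of 15 that rose, 2 of 4 that fell and 12 of 36 that did not pass. TGGGAA was found in 3 of the 15 (Nlrp1a, Tlr2 and Tlr6), 1 of the 4 (Nlrc4) and 14 of the 36. The motifs were chosen after results were known, so these counts are a description of letters and not of binding.

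Among Toll-like receptors, all 4 measured surface receptors rose, where 17.8% of all genes rose. Tlr2, which with Tlr1 or Tlr6 binds bacterial lipoproteins, had 6.27, 5.60 and 5.97 in NICD kidneys against 5.12, 4.98 and 4.86 in Control kidneys, a 1.94-fold rise (0.96 log2, SE 0.17, adjusted p = 0.00166 in limma). The Control values of Tlr2 lay under the array medians (5.26 to 5.41) and are not shown to be above background, so its fold is uncertain. Tlr6 rose by 0.65 log2 and Tlr1 by 0.61. Tlr4, the receptor for bacterial lipopolysaccharide, had 5.23, 4.59 and 3.96 in NICD kidneys against 3.57, 3.85 and 3.64 in Control kidneys (0.91 log2, SE 0.27, adjusted p = 0.0265 in limma). The lowest NICD value of Tlr4 was only just above the highest Control value. These calls were fragile for Tlr4, Tlr6 and Tlr1. Without NICD replicate 1 the differences were 0.59 for Tlr4 and 0.41 for Tlr6. The call of Tlr4 was lost without NICD replicate 2 (0.91), Control replicate 1 (0.85) or Control replicate 3 (0.88), and that of Tlr6 without Control replicate 1 (0.59), 2 (0.71) or 3 (0.66). That of Tlr1 was lost without NICD replicate 3 (0.52), Control replicate 1 (0.54) or Control replicate 2 (0.49).

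Of the 6 measured endosomal receptors, 3 rose and 0 fell, where 17.8% of all genes rose and 14.9% fell. Tlr13, which in mice recognises bacterial ribosomal RNA, had 5.90, 5.06 and 4.66 in NICD kidneys against 3.77, 3.53 and 3.32 in Control kidneys (1.66 log2, SE 0.27, adjusted p = 0.00123 in limma). All 3 NICD values were higher than every Control value, by the widest margin in NICD replicate 1. Tlr8 and Tlr7, sensors of single-stranded RNA, rose by 0.91 and 0.74 log2 and lay under the median gene of every array in both groups. Tlr9, the sensor of unmethylated DNA, differed by 0.28 (95% interval 0.04 to 0.52, adjusted p = 0.0775 in limma). Tlr3, which binds double-stranded RNA and signals without Myd88, had 6.36, 5.42 and 5.42 in NICD kidneys against 4.95, 5.15 and 5.42 in Control kidneys. Its difference of 0.56 (95% interval 0.01 to 1.11) did not pass and was 0.25 without NICD replicate 1. NICD replicate 1 stood well above the other arrays, while the other NICD values were at or above the highest Control value. Tlr12, which in mice binds a protozoan profilin, differed by 0.02 (95% interval -0.21 to 0.26).

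The adaptor Myd88 was higher in every NICD array, at 7.57, 7.42 and 7.42 against 6.15, 6.17 and 6.44 in Control kidneys. This was a 2.32-fold rise (1.22 log2, SE 0.12, adjusted p = 4.34e-05 in limma), and the 3 NICD arrays lay close together. Myd88 carries the signal of nearly all Toll-like receptors and of interleukin-1 receptors. Pycard, the adaptor of inflammasomes, had 5.99, 5.92 and 5.52 in NICD kidneys against 5.13, 5.04 and 5.03 in Control kidneys (0.74 log2, SE 0.13, adjusted p = 0.00209 in limma). Its groups did not overlap either.

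The genes around the Toll-like receptors moved unequally. For comparison, 32.7% of all genes were called, and 52.6% of those ranked at or above the middle by mean level. Of 11 measured co-receptors and chaperones, 4 rose, 1 fell and 6 did not pass (45.5% called). Lbp, which hands lipopolysaccharide to Cd14, rose by 2.92 log2, Cd14 by 2.79, and Unc93b1, which carries endosomal receptors to their compartment, by 1.29. Ly96, the partner with which Tlr4 binds lipopolysaccharide, differed by 0.07 (95% interval -0.26 to 0.41). Cd36, a fatty acid carrier that also assists Tlr2, fell by 5.20 log2 to 5.30 ± 0.23 in NICD kidneys, against 10.50 ± 0.34 in Control kidneys (SD, n = 3 each). Of 20 adaptors and kinases, 5 rose, 0 fell and 15 did not pass (25.0% called). Irf7, the interferon regulatory factor downstream of Tlr7 and Tlr9, rose by 2.20 log2, the kinase Ikbke by 0.94, Tab2 by 0.61 and Ikbkb by 0.40. Of 13 negative regulators, 6 rose and 2 fell (61.5% called). The NF-kB inhibitors Tnfaip3 and Tnip1 rose by 1.30 and 0.68 log2 and the transcription factor Atf3 by 1.60. Sigirr, an inhibitory member of the interleukin-1 receptor family known from epithelium, fell by 0.84.

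**Figure D3:**
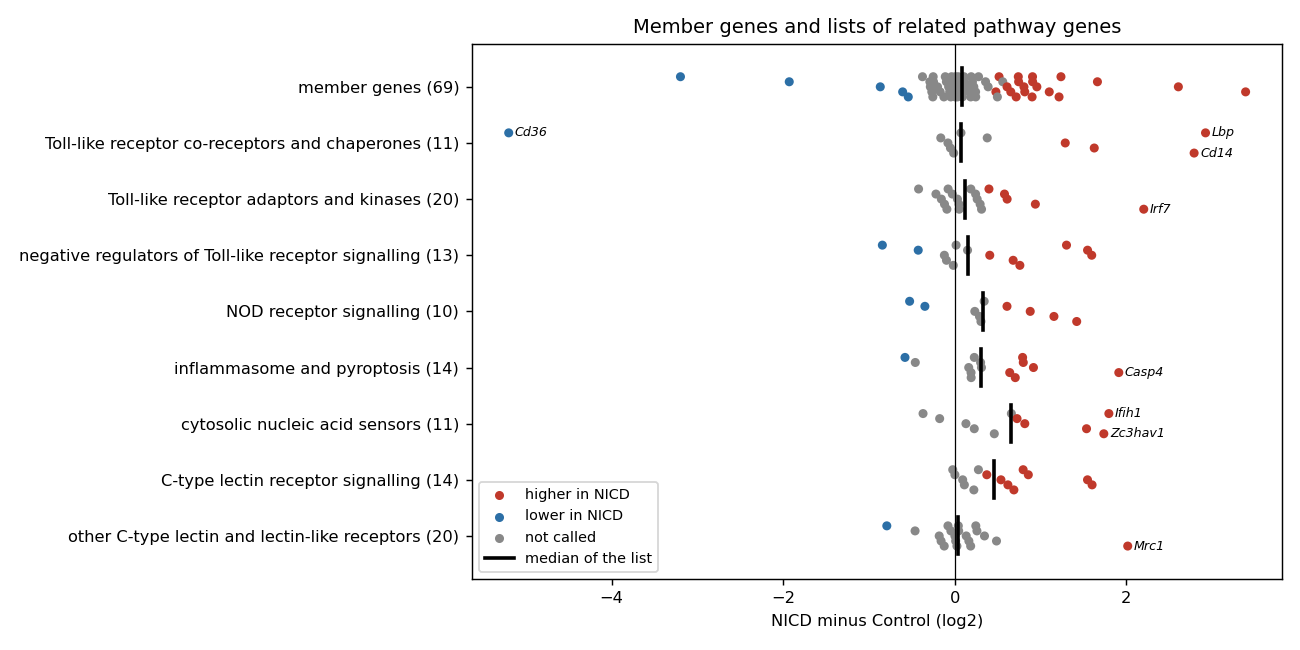
Difference between NICD and Control (log2) of the 69 member genes and of 8 lists of pathway genes, one point per gene coloured by call, with a black bar at the list's median and the number of measured genes in brackets. Co-receptors of Toll-like receptors run from Cd36 at -5.20 to Lbp at 2.92. C-type lectin signalling genes hold 8 rises and 0 falls, 57.1% called against 32.7% of all genes. Among all genes ranked at or above the middle by mean level, 52.6% were called.

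Of the 24 NOD-like receptors counting Aim2, 3 passed (12.5%), and Nlrp6 differed most. In this family 91.7% of genes lay under the median gene of every array. Among all genes ranked under the middle by mean level, 12.9% were called. Nlrp6, an inflammasome-forming gene known from intestinal epithelium, had 5.80, 6.12 and 6.23 in NICD kidneys against 7.83, 8.13 and 7.99 in Control kidneys. It fell 3.81-fold (-1.93 log2, SE 0.14, adjusted p = 8.01e-06 in limma), with every NICD array well under every Control array. Nlrc4, which with Naip proteins detects bacterial flagellin, fell by 0.87 log2 (adjusted p = 0.00715 in limma) and had 3.59, 3.35 and 3.59 in NICD kidneys against 3.97, 4.83 and 4.33 in Control kidneys. Nlrp1a, an inflammasome sensor, rose by 0.81 log2 (adjusted p = 0.00230 in limma). Its close copies Nlrp1b and Nlrp1c-ps differed by 0.06 and 0.11 and did not pass. Nlrc4 and Nlrp1a lay under the median gene of every array.

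Nlrp3, the best studied inflammasome sensor of kidney disease, had 3.67, 3.65 and 3.73 in NICD kidneys against 3.36, 3.75 and 3.35 in Control kidneys. The groups overlapped, and the difference of 0.19 (95% interval -0.09 to 0.48, adjusted p = 0.317 in limma) did not pass. Aim2, a sensor of cytosolic DNA, differed by 0.19 (95% interval -0.05 to 0.42). Nod1 and Nod2, which bind peptidoglycan fragments, differed by 0.24 (95% interval 0.02 to 0.46) and -0.05 (95% interval -0.40 to 0.31). Nlrc3, described as a brake on T cells and DNA sensing, differed by -0.26 and was called as lower after quantile normalization (-0.34) and after centring (-0.38). Nlrp10 differed by 0.36. Of these 6 genes none passed, and all but Nod1 lay under the median gene of every array. Without detection calls it cannot be said whether such dim genes were measured above background.

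The 13 members known from germ cells and the early embryo, among them Nlrp2, Nlrp5, Nlrp14 and the Nlrp4 and Nlrp9 genes, were all uncalled. Their single values ran from 2.04 to 3.33, under the median gene of every array, which lay between 5.26 and 5.41. Nlrp4e had the largest difference (-0.38, adjusted p = 0.0835 in limma) and was called as lower without Control replicate 1 (-0.55) and after centring. The Nlrp4, Nlrp9 and Nlrp1 genes are close copies whose probes can share targets, and 1 probe set that matches both Nlrp4c and Nlrp4e was left out.

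Downstream of these sensors, 6 of 14 measured inflammasome and pyroptosis genes rose and 1 fell. Of these 14 genes, 8 lay under the median gene of every array. For comparison, 32.7% of all genes were called, 52.6% of those ranked at or above the middle by mean level and 12.9% of those under it. Whether the lists of this paragraph exceed such shares was not tested. Casp4, the caspase that binds lipopolysaccharide directly, rose to 5.61 ± 0.30 in NICD kidneys, against 3.70 ± 0.38 in Control kidneys (SD, n = 3 each, 1.91 log2). Txnip, a partner of Nlrp3, rose by 0.92 log2, Casp8 by 0.80 and the ATP-gated channel P2rx7 by 0.64. Casp1 itself differed by 0.19 (95% interval -0.13 to 0.51) and the pore-forming Gsdmd by 0.31 (95% interval -0.09 to 0.71). Of 10 genes of NOD signalling, 4 rose and 2 fell, and only 2 of the 10 lay under the median gene of every array. The share called in this list was near that of all genes ranked at or above the middle by mean level. The ubiquitin ligases Birc3 and Birc2 rose by 1.42 and 0.88 log2 and the peptide transporter Slc15a3 by 1.16, while the mitochondrial Nlrx1 fell by 0.53. Of 11 measured cytosolic nucleic acid sensors, 5 rose and 0 fell (45.5% called), led by Zc3hav1 (1.74 log2), Ddx58 (1.54), Ifih1 (1.80) and Dhx58 (0.82).

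C-type lectins held both ends of the member list. Clec18a, which encodes a secreted lectin whose human counterparts bind polysaccharides, had 8.49, 8.67 and 8.73 in NICD kidneys against 5.45, 5.16 and 5.10 in Control kidneys. The rise was 10.5-fold (3.39 log2, SE 0.12, adjusted p = 2.74e-07 in limma), and the NICD arrays lay close together, far above Control. Unlike most risen members, its lowest NICD value was in replicate 1. Control replicates 2 and 3 of Clec18a lay under the array medians (5.26 to 5.41). They are not shown to be above background, so the fold is uncertain. Clec2h, a membrane lectin known from mouse gut and kidney epithelium that natural killer receptors bind, had 3.88, 4.24 and 4.53 in NICD kidneys against 6.90, 7.64 and 7.70 in Control kidneys. It fell 9.17-fold (-3.20 log2, SE 0.23, adjusted p = 8.10e-06 in limma), and its groups lay far apart. The NICD values of Clec2h lay under the array medians (5.26 to 5.41) and are not shown to be above background, so the fold is uncertain. The other 7 Clec2 genes measured, including the pseudogene Clec2j, were uncalled, with differences from -0.28 for Clec2e to 0.39 for Clec2d. Clec2d was called as higher without NICD replicate 3 (0.59) and was at 0.20, uncalled, without NICD replicate 1. Clec2e was called as lower without Control replicate 1 (-0.40) and after centring (-0.41).

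In the Dectin-2 group 4 of 9 genes rose and 0 fell (44.4% called), and 8 of the 9 lay under the median gene of every array. Over all genes 32.7% were called, and 12.9% of those ranked under the middle by mean level. Clec4n, which encodes Dectin-2, a receptor for fungal mannans that signals through Fcer1g, had 6.58, 4.67 and 5.26 in NICD kidneys against 2.96, 2.84 and 2.89 in Control kidneys. The difference was 2.61 log2 (SE 0.38, adjusted p = 6.53e-04 in limma). No fold is given, since the Control values lay within the range of the germ cell and embryo genes (2.04 to 3.33) and are not shown to be above background. Control arrays were nearly equal, while NICD arrays were spread widely, with replicate 1 highest. The related Clec4a1, Clec4a2 and Clec4a3 rose by 0.72, 0.52 and 0.48 log2 at low levels, of which Clec4a2 is known to carry an inhibitory motif. The call of Clec4a3 was lost without any 1 of the 3 Control replicates (0.49, 0.47 and 0.48). Clec4d and Clec4e, partners that bind mycobacterial glycolipid, differed by 0.50 (95% interval 0.05 to 0.94) and 0.21 (95% interval -0.04 to 0.45). Clec4d was called as higher without NICD replicate 3 (0.69) and was at 0.29, uncalled, without NICD replicate 1. The Clec4a, Clec4b and Clec2 genes are close relatives whose probes may share targets, so their single values are uncertain.

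In the Dectin-1 group Clec7a and Clec12a rose and Clec1a fell among 6 genes. Clec7a, which encodes Dectin-1, the receptor for fungal beta-glucan, had 5.91, 4.49 and 5.01 in NICD kidneys against 3.74, 3.94 and 4.01 in Control kidneys (1.24 log2, SE 0.29, adjusted p = 0.00967 in limma). All NICD values were higher, with replicate 1 farthest from Control. Clec12a, an inhibitory receptor of myeloid cells, rose by 0.82 log2. Clec1a, known from endothelium and dendritic cells, fell by 0.61 log2, as did Clec14a, an endothelial lectin outside this group, by 0.54. Clec9a, a receptor for dead cells on a subset of dendritic cells, differed by -0.29 and Clec1b, the podoplanin receptor of platelets, by -0.27. Neither passed, but after centring both were called as lower (-0.41 and -0.39).

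Among the other lectins, Clec5a and Clec10a rose. Clec5a, a myeloid receptor that pairs with Tyrobp, had 5.47, 3.996 and 3.95 in NICD kidneys against 3.27, 3.29 and 3.54 in Control kidneys (1.10 log2, SE 0.35, adjusted p = 0.0359 in limma). A single NICD array was far above the other 2, and without NICD replicate 1 the difference was 0.60. The call was lost without Control replicate 1 (1.05), 2 (1.06) or 3 (1.19). Clec10a, a galactose-binding lectin of macrophages, rose by 0.90 log2, or by 0.55 without NICD replicate 1, and its call was lost without Control replicate 1 (0.97), 2 (0.90) or 3 (0.84). Clec4f, known from liver macrophages, differed by -0.25 without passing, but was called as lower after quantile normalization (-0.30) and after centring (-0.37). Clec4g was the only member with 2 probe sets of its own, which differed by -0.04 and -0.09.

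Of 14 genes through which C-type lectin receptors signal, 8 rose and 0 fell (57.1% called, against 32.7% of all genes). Only 4 of the 14 lay under the median gene of every array. Among all genes ranked at or above the middle by mean level, 52.6% were called, a share near that of this list. The activating adaptors Tyrobp and Fcer1g rose by 1.60 and 1.55 log2, the kinase Syk by 0.80, the lipid phosphatase Inpp5d by 0.86 and Vav1 by 0.69. Card9, the link from Syk to NF-kB, differed by -0.02 (95% interval -0.27 to 0.22). Of 20 other lectin and lectin-like receptors measured, 1 rose and 1 fell: the mannose receptor Mrc1 rose by 2.02 log2 and Cd302 fell by 0.79.

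The Clec genes of chromosome 6 lie in blocks, in which called and uncalled genes stood side by side (gene order of GRCm38.p6). In the Dectin-2 block, 9 member genes follow each other with no other measured gene between them. There Clec4n (2.61 log2) stands between Clec4b2 (-0.20) and Clec4d (0.50), neither of which passed. In the natural killer receptor block, from Clec2j to Clec7a, 2 of 13 members rose and 2 fell (15.4% each way). These shares were near those of all genes, of which 17.8% rose and 14.9% fell. Clec2h (-3.20) lies beside Clec2j (0.24, not called), and Clec7a (1.24) beside Clec1a (-0.61). The 6 other measured genes inside this block were all uncalled.

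**Figure D4:**
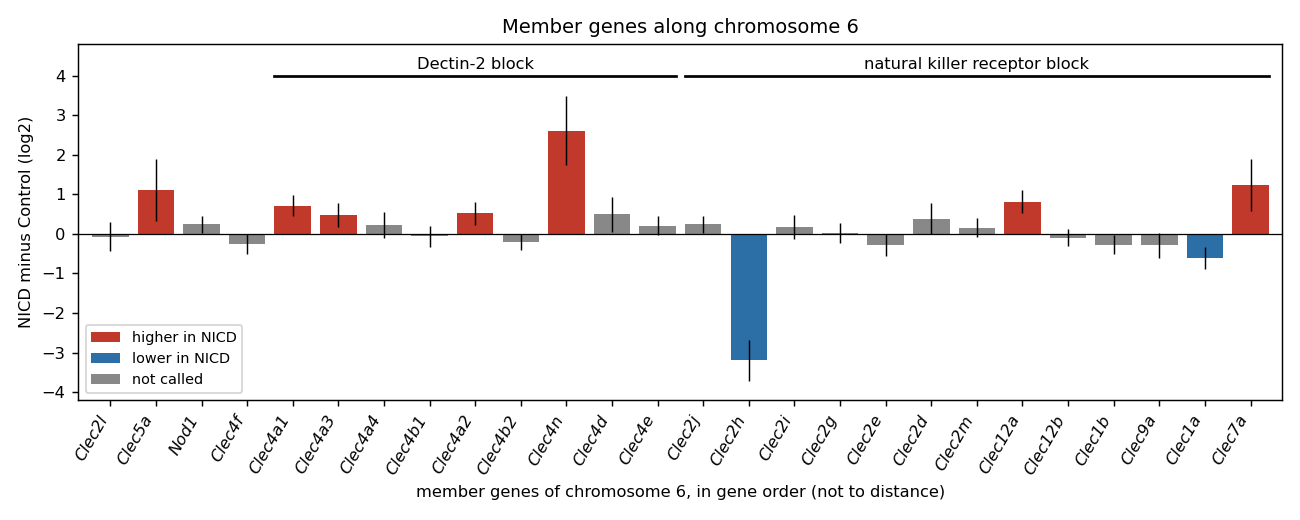
Difference between NICD and Control (log2) of the 26 member genes of chromosome 6, in gene order and not to distance, with 95% intervals and bars coloured by call. Clec4n at 2.61 and Clec2h at -3.20 stand beside neighbours that were not called.

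Of 8 macrophage markers, 7 rose and 0 fell, with a median of 1.87 log2, where 17.8% of all genes rose. C1qb rose by 2.47 log2, Itgam by 2.41, C1qa by 2.21 and Mrc1 by 2.02, whereas Csf1r, the receptor that macrophages need to survive, differed by -0.05 (95% interval -0.34 to 0.25). The summed linear signal of these markers was 1179, 775 and 623 in NICD replicates 1 to 3, against 307 to 331 in Control kidneys. NICD replicate 1 was thus highest, as it was for 16 of the 19 risen members, among them Clec4n, Clec7a, Clec5a, Tlr13 and Tlr4. Over all genes called higher, 56.7% had their highest NICD value on that array. All 19 members kept their calls without it.

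Markers of other immune cells changed less. The share called was 32.7% over all genes and 12.9% among those ranked under the middle by mean level. Neutrophil markers had 1 rise and 0 falls among 6, with summed signals of 81.3 to 88.9 in NICD kidneys against 78.7 to 80.1 in Control kidneys. S100a8, which neutrophils make in abundance, differed by -0.01 (95% interval -0.22 to 0.20). T cell markers had 1 rise among 5, B cell markers 1 fall among 4, natural killer markers 0 calls among 5 and mast cell markers 1 fall among 5. Conventional dendritic cell markers had 1 rise among 6 and plasmacytoid ones 1 rise among 4. Platelet markers had 0 calls among 4.

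Tubule and endothelial markers fell beside the lower members. All 6 proximal tubule markers fell, by 2.61 to 6.57 log2, and their summed signal was 760, 1204 and 1695 in NICD replicates 1 to 3, against 15502 to 15957 in Control kidneys. Clec2h and Nlrp6 stood in the same order as this sum over the NICD arrays, lowest in replicate 1 and highest in replicate 3. An order of 3 arrays can match by chance, and the share of all fallen genes in this order was not counted. All 4 measured markers of other nephron parts fell as well, where 14.9% of all genes fell. Of 6 endothelial markers 3 fell (Tek by 1.76, Kdr by 1.54 and Emcn by 1.21 log2) and 0 rose, with summed signals of 326 to 595 in NICD kidneys against 868 to 880 in Control kidneys. Clec14a had 4.36, 4.18 and 3.99 in NICD kidneys against 4.63, 4.84 and 4.68 in Control kidneys, with its lowest value in NICD replicate 3, where the endothelial sum was also lowest. Clec1a, with 4.12, 4.30 and 4.22 in NICD kidneys against 4.71, 5.05 and 4.71 in Control kidneys, was lowest in NICD replicate 1 and did not follow that order. Nlrc4 was lowest in NICD replicate 2 and followed neither the tubule nor the endothelial sum. The part of cell make-up in the rises and falls of member genes was not tested.

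**Figure D5:**
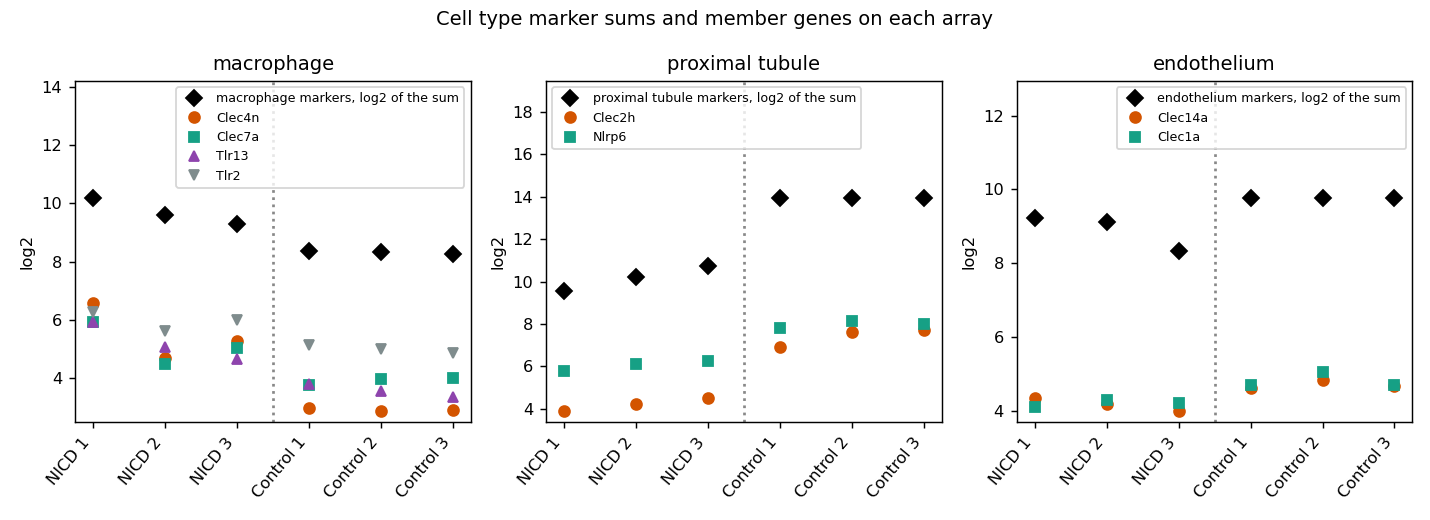
Log2 of the summed marker signal of macrophages, proximal tubule and endothelium on each array (diamonds), beside log2 expression of member genes, with NICD arrays to the left of the dotted line and Control arrays to the right. Macrophage sums and Clec4n are highest in NICD replicate 1, and proximal tubule sums, Clec2h and Nlrp6 are lowest there.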

How the data were processed

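Expression was measured in 3 NICD and 3 Control samples of whole kidney. Per the labels' protocols, TRIzol RNA was labelled with the Affymetrix One Cycle kit and the authors normalized the values with RMA16 in GeneSpring. The deposited values are log2 expression per probe set, without detection calls, so dim genes cannot be told from background. The number of arrays limits the precision.

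Of 34760 probe sets, 6573 whose numbers precede the first annotated one and 1321 with several symbols were left out. All 69 members matched RefSeq by Entrez ID. The fit was NICD minus Control in limma 3.58.1 (R 4.3.3, lmFit and eBayes, no covariates, tested on simulated data), adjusted over 19937 genes by Benjamini-Hochberg. Members and lists were chosen with earlier results of these data known. Named were all Tlr genes, Nod1, Nod2, Nlrc3, Nlrc4, Aim2, Myd88 and Pycard, other members if called, the 3 Nlrp and 6 Clec genes of largest uncalled difference, up to 4 genes of lowest p per list, and defining cell markers. Ly96, Casp1, Gsdmd, Fcer1g, Card9, Clec4e, Clec4g, Clec4b2, Clec2j, Nlrp1b, Nlrp1c-ps, Nlrp2, Nlrp4d, Nlrp5, Nlrp5-ps and Nlrp14 were named after their values were seen. Alternatives were the mean over probe sets, quantile normalization, median centring, a low-value filter, trended robust variances, a stricter threshold, a replicate block and leaving out each array.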

Additional observations from a re-analysis of the deposited data

How the results depend on the processing

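Of the 24 called members, 17 kept their call under each alternative that tested them, 11 of these being too dim for the filter on low values, and none of these 24 changed sign where tested. Among the uncalled members named, Tlr12 (0.02) was at -0.07 after quantile normalization, -0.10 after centring, -0.02 without NICD replicate 3 and -0.03 without Control replicate 2. Nod2 (-0.05) was at 0.10 without NICD replicate 2 and at 0.02 without Control replicate 1 or 3. After centring of arrays on their medians, 13 members were higher and 12 lower, with a members' median of -0.034, against 0.089 as deposited. Centring shifted the median of all genes by -0.12. The calls lost were Clec4a2, Clec4a3, Clec5a, Tlr1, Tlr4 and Tlr6, those gained as lower were Clec1b, Clec2e, Clec4b2, Clec4f, Clec9a, Nlrc3 and Nlrp4e, and 39.4% of all calls were then higher, against 54.4%. Leaving out the lowest 40% of genes left 12 members, 4 higher and 2 lower, with a median of 0.33. Of all genes then kept, 3290 were higher and 2866 lower. At an adjusted p under 0.01, 12 members were higher and 5 lower, and 2398 of all genes were higher and 2188 lower. Quantile normalization gave 16 higher and 7 lower, without Clec5a, Tlr4 and Tlr6 and with Clec4f and Nlrc3. Among all genes it gave 3595 higher and 3001 lower. Leaving out 1 array gave 13 to 20 higher and 5 to 7 lower members, medians of 0.08 to 0.11, and 2816 to 3488 higher and 2459 to 2811 lower genes overall. With the replicate number as a block, 19 members were higher and 5 lower, as without it, and 3219 higher and 2762 lower genes overall. Same-numbered arrays did not deviate together (correlations of -0.07, -0.01 and -0.07), so the numbers were not treated as pairs. Without detection calls, low signal limits what the dim members can show.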
